A study of Arabidopsis thaliana with 6 samples.

Results

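The genes described here encode the enzymes that remove superoxide and peroxides in *Arabidopsis*. They are 42 loci of 8 families, namely 8 ascorbate peroxidases (APX), 3 catalases (CAT), 7 superoxide dismutases (SOD), 8 glutathione peroxidase-like proteins (GPX), 5 monodehydroascorbate reductases (MDAR), 3 dehydroascorbate reductases (DHAR), 2 glutathione reductases (GR), and 6 peroxiredoxins (PRX). The loci were listed by enzyme family, with earlier results of these data known, and a probe was a member if its transcript belonged to a listed locus. All 42 genes had a probe, of 25470 genes with a probe on the array, and together they had 80 of the 43603 probes.

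RNA was compared between 3 arrays of Col-0, the wild type, and 3 arrays of OsbHLH068OE, which carries the rice transcription factor gene *OsbHLH068* under a constitutive promoter of the cauliflower mosaic virus in the Col-0 background. Both groups were aerial tissues of 17-day-old plants, and the labels give no treatment. The transgenic plants came from a single transformed line, so the comparison cannot tell the transgene from its insertion site. Nothing in the labels says whether the replicates came from separate plants, and the methods mention pooled cRNA without saying what was combined, so the P values measure only the spread between these arrays. The study asked about salt tolerance and assayed H2O2 in its lines with and without salt. No salt-treated sample is on these arrays, which therefore give the transcript levels of the peroxide-removing enzymes at rest.

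Superoxide dismutase turns superoxide into H2O2. Catalase breaks down H2O2 in the peroxisome without a reductant, whereas ascorbate peroxidase reduces it with ascorbate in most other compartments. The oxidized ascorbate is recovered by MDAR and, with glutathione, by DHAR, and GR keeps glutathione reduced. Glutathione peroxidase-like proteins and peroxiredoxins reduce H2O2 and organic peroxides, in plants mostly with electrons from thioredoxins. Many of these enzymes occur as separate chloroplast and cytosolic or peroxisomal forms encoded by different genes.

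Between 70.9% and 74.0% of the probe spots were well above background on each array, and 0 probe spots were saturated. Slide 1 carried replicate 1 of each group, and slide 2 carried the other arrays. Of the member probes, 77 of 80 had a signal well above background throughout at least 1 group, and 3 had none on any array. Those 3 were the single probes of *APX2* and *GPX4* and 1 of 3 probes of *CAT1*. All 31 probes of 4 photosynthesis genes used as leaf markers were well above background, whereas 4 of 8 root marker probes were so nowhere. All 7 probes of 5 floral organ genes were above background. At an unadjusted P under 0.05, 1 of the 5 genes was higher in OsbHLH068OE (*AG*, with log2 differences of 0.55 and 0.53 on its probes) and 1 was lower (*SEP3*, with -0.78 and -0.91), while *AP1*, *AP3*, and *PI* had -0.26, 0.00, and -0.26. Their part in any result was not tested. In such bulk samples, fewer cells of a type and less RNA per cell cannot be told apart.

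None of the antioxidant enzyme genes passed the adjusted test, and the share with a difference at an unadjusted P was close to that of the whole array. At an adjusted P under 0.05 (limma, Benjamini-Hochberg over all probes), 0 of 80 member probes were called, where the share over all probes was 0.534%. A probe counted as differentially expressed (DEP) where its log2 fold change exceeded 1 in either direction at an unadjusted P under 0.05, and 0 of 80 members were DEPs against 1.17% of all probes. At an unadjusted P under 0.05 alone, 10 member probes were higher in OsbHLH068OE and 6 were lower, together 20.0% of the members, where the share over all probes was 19.8% (11.0% higher and 8.80% lower). The 2 groups did not overlap for 23 member probes (11 higher and 12 lower), or 28.8%, against 27.0% of all probes. The member shares were thus near the background. The median log2 fold change was 0.03 over the member probes and 0.02 over all probes, with a range among members from -0.80 to 0.79. The lowest adjusted P of a member was 0.0681, for a probe of *FSD1*. With 3 arrays a group, the exact two-sided permutation test of a single probe cannot go below P = 0.1.

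For each gene, the probe with the highest mean signal was taken as its representative. On these 42 probes, 6 genes were higher at an unadjusted P under 0.05 (*GPX7*, *FSD1*, *SAPX*, *GR2*, *TAPX*, and *2CPA*), 5 were lower (*CSD1*, *CSD2*, *GPX2*, *APX5*, and *GPX3*), and 31 did not reach it. Of the 20 genes with more than 1 probe, 16 had the same sign on every probe. All levels below are log2 signals after quantile normalization, which compare a probe between arrays but not 1 gene with another. All differences are OsbHLH068OE minus Col-0 on the log2 scale.

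**Figure D1:**
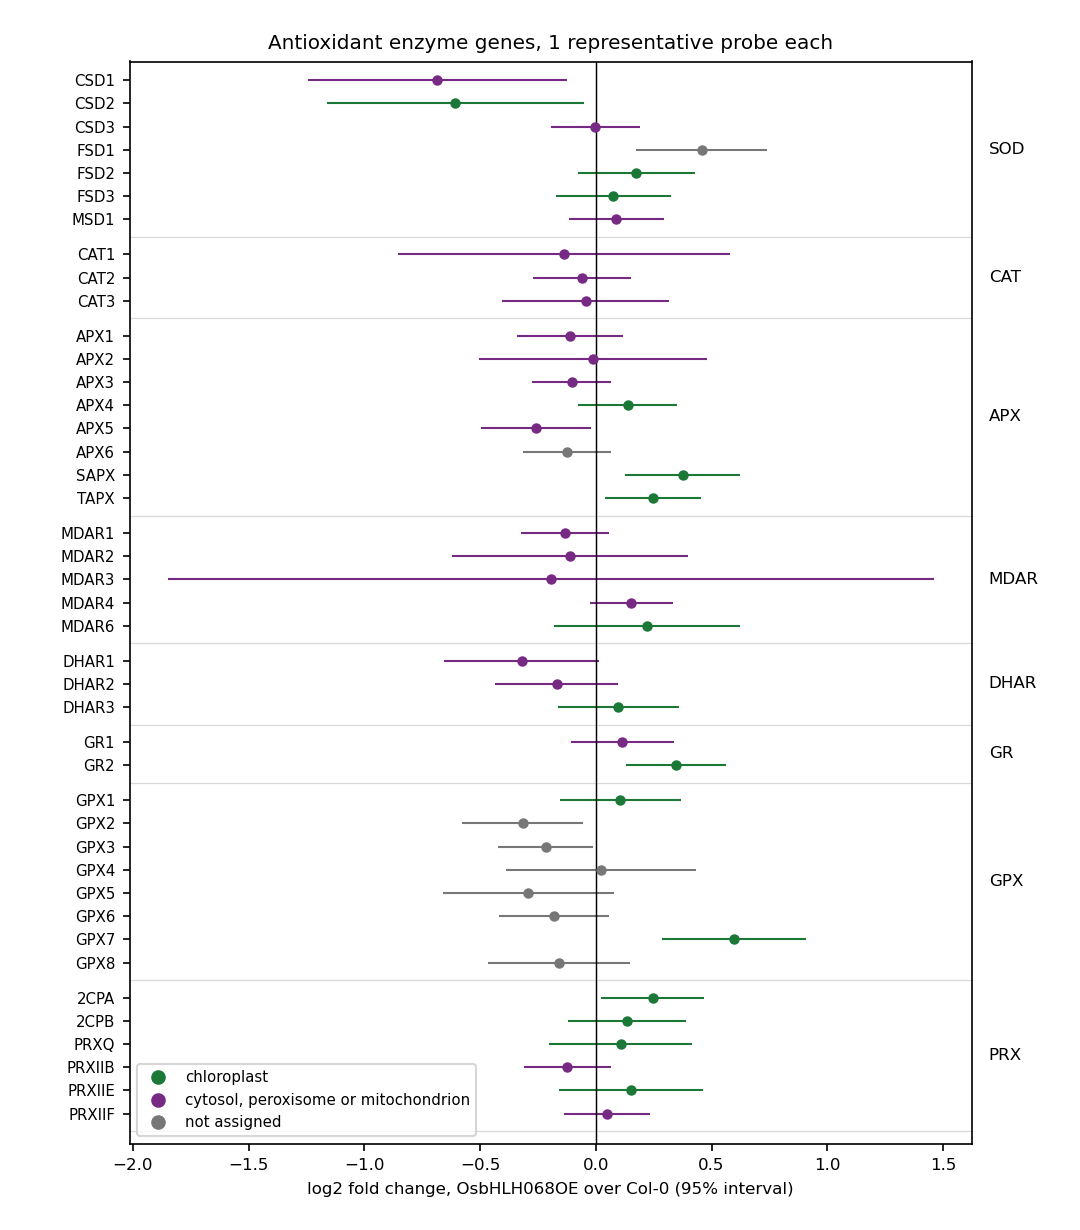
Log2 fold change of OsbHLH068OE over Col-0 for the representative probe of each of the 42 genes (points) with its 95% confidence interval from limma (lines), grouped by family and coloured by the compartment of the protein. The intervals of 11 genes exclude 0, with *CSD1* and *CSD2* farthest to the left and *GPX7* and *FSD1* farthest to the right.

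The superoxide dismutases held the 2 lowest differences and the second highest among the representative probes. The 2 major copper/zinc enzymes, cytosolic *CSD1* (AT1G08830) and chloroplast *CSD2* (AT2G28190), had lower signals in OsbHLH068OE, while the iron enzyme *FSD1* (AT4G25100) had a higher one.

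*CSD1* measured 15.26, 16.07, and 15.66 in Col-0 replicates 1 to 3 and 14.72, 15.12, and 15.10 in OsbHLH068OE replicates 1 to 3. Every transgenic array was below every Col-0 array, and in both groups the array on slide 1 was the lowest. The means were 15.66 ± 0.41 and 14.98 ± 0.22 (SD, n = 3 each), a 1.61-fold lower signal with a log2 difference of -0.68 (95% CI -1.24 to -0.13), an unadjusted P of 0.0242, and an adjusted P of 0.194 by limma. The second probe gave -0.64, with an adjusted P of 0.227 and again no overlap.

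*CSD2* measured 15.21, 15.81, and 15.77 in Col-0 and 14.65, 15.03, and 15.28 in OsbHLH068OE. The groups overlapped, since replicate 3 of OsbHLH068OE lay above replicate 1 of Col-0, although on each slide the transgenic arrays were below the Col-0 arrays. The log2 difference was -0.61 (95% CI -1.16 to -0.05, adjusted P = 0.226 by limma), or 1.52-fold lower. Its second probe gave -0.80 (unadjusted P = 0.0504, adjusted P = 0.253).

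*CCS*, the chaperone that loads copper into these dismutases, is not an antioxidant enzyme itself but was on a list of partner genes. Its values were 13.00, 13.74, and 13.58 in Col-0 and 12.51, 12.86, and 13.10 in OsbHLH068OE, a log2 difference of -0.62 (adjusted P = 0.238 by limma). As for *CSD1* and *CSD2*, slide 1 held the lowest array of each group. *CSD1*, *CSD2*, and *CCS* are known targets of the microRNA miR398, which is made under copper limitation. The 3 genes of miR398 had no matched probe here.

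*FSD1* measured 16.06, 15.69, and 15.79 in Col-0 and 16.35, 16.24, and 16.32 in OsbHLH068OE. All 3 transgenic arrays were above all Col-0 arrays, and the transgenic values lay within a narrow range. The means were 15.84 ± 0.19 and 16.30 ± 0.06 (SD, n = 3 each), and the log2 difference was 0.46 (95% CI 0.18 to 0.74, adjusted P = 0.131 by limma), or 1.37-fold. The second probe gave 11.33, 11.00, and 11.20 against 11.96, 11.79, and 11.87, a log2 difference of 0.70 (95% CI 0.43 to 0.96) with an adjusted P of 0.0681, or 1.62-fold.

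With the slide as a block, the second *FSD1* probe had an adjusted P of 0.0434 by limma and was the only member probe under 0.05, where 2.33% of all probes were called in that fit. At an unadjusted P under 0.05 in that fit, 12 member probes were higher and 9 lower, where the share over all probes was 26.6%. The representative probes of *FSD1*, *CSD1*, and *CSD2* had 0.0638, 0.0644, and 0.0503 there, and *CCS* had 0.0557. Within slide 1, which held 1 array of each group, the differences were 0.29 for *FSD1*, -0.54 for *CSD1*, and -0.55 for *CSD2*, and within slide 2 they were 0.54, -0.76, and -0.63. Each gene thus had the same sign on both slides, which a large difference over all arrays makes likely. The same held for 53 of the 80 member probes and 28450 of all 43603 probes.

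The other 4 dismutases did not differ beyond the spread of the arrays. The peroxisomal copper/zinc enzyme *CSD3* had a log2 difference of 0.00 (95% CI -0.20 to 0.19), the chloroplast iron enzymes *FSD2* and *FSD3*, which act at the plastid nucleoid, had 0.18 and 0.08, and the mitochondrial manganese enzyme *MSD1* had 0.09 on both of its probes. The interval of *CSD3* does not reach the difference of *CSD1* or *CSD2*. *MTM1*, a mitochondrial carrier whose yeast homolog is needed to activate the manganese enzyme, was higher on both probes, by 0.37 and 0.33 (adjusted P = 0.111 and 0.146 by limma, no overlap on either).

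**Figure D2:**
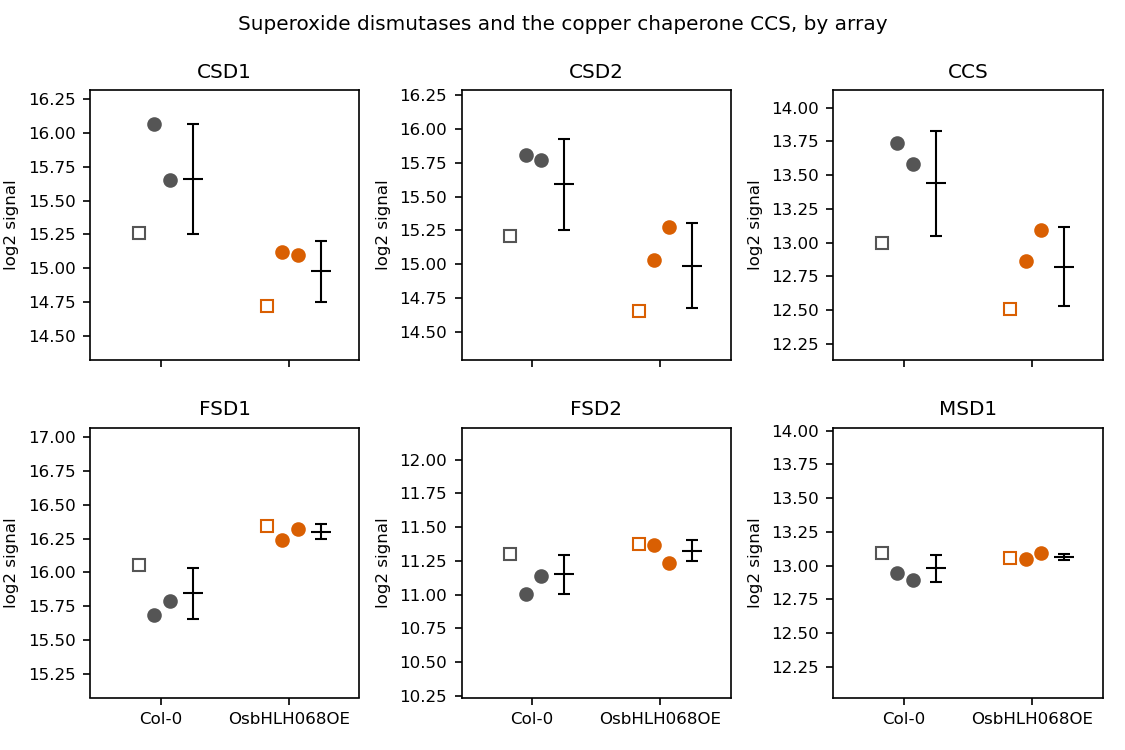
Log2 signal of the representative probe of 5 superoxide dismutase genes and of the copper chaperone gene *CCS* on each array, by group. Open squares are the arrays of slide 1, filled circles those of slide 2, and the line with bars is the mean ± SD (n = 3), with each panel spanning the same range of log2 units. *CSD1*, *CSD2*, and *CCS* are lower and *FSD1* is higher in OsbHLH068OE on each slide, whereas *FSD2* and *MSD1* overlap between the groups.

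The representative probes of the catalases showed no difference beyond the spread of the arrays, although 1 dimmer *CAT3* probe did not overlap between the groups. *CAT2* (AT4G35090), the main leaf catalase of photorespiration, measured 16.41, 16.55, and 16.56 in Col-0 and 16.42, 16.38, and 16.54 in OsbHLH068OE. The ranges overlapped, and the log2 difference was -0.06 (95% CI -0.27 to 0.15, adjusted P = 0.734 by limma). *CAT1* (AT1G20630), a stress- and seed-related catalase, measured 13.96, 14.43, and 14.24 in Col-0 and 13.50, 14.10, and 14.61 in OsbHLH068OE. The transgenic arrays both undercut and exceeded all Col-0 arrays, and the log2 difference of -0.14 had a 95% CI from -0.86 to 0.58 (adjusted P = 0.819). Its other probe above background varied less and gave -0.02 (95% CI -0.20 to 0.17).

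*CAT3* (AT1G20620), a catalase with an evening peak of expression, had 9 probes. Its representative probe measured 16.02, 16.50, and 16.34 in Col-0 and 16.11, 16.23, and 16.38 in OsbHLH068OE, a log2 difference of -0.04 (95% CI -0.40 to 0.32, adjusted P = 0.894 by limma). On 8 of its 9 probes the difference was between -0.04 and 0.20, the groups overlapped, and Col-0 replicate 1 was the lowest array. The ninth, A_84_P600468, singled out after its values were seen, differed. It measured 6.28, 6.87, and 6.89 in Col-0 and 7.55, 7.45, and 7.41 in OsbHLH068OE, so that the groups did not overlap, and its log2 difference was 0.79 (95% CI 0.35 to 1.24, unadjusted P = 0.00467, adjusted P = 0.116), or 1.73-fold. This probe matches another transcript accession of the gene, and what sets it apart was not tested.

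**Figure D3:**
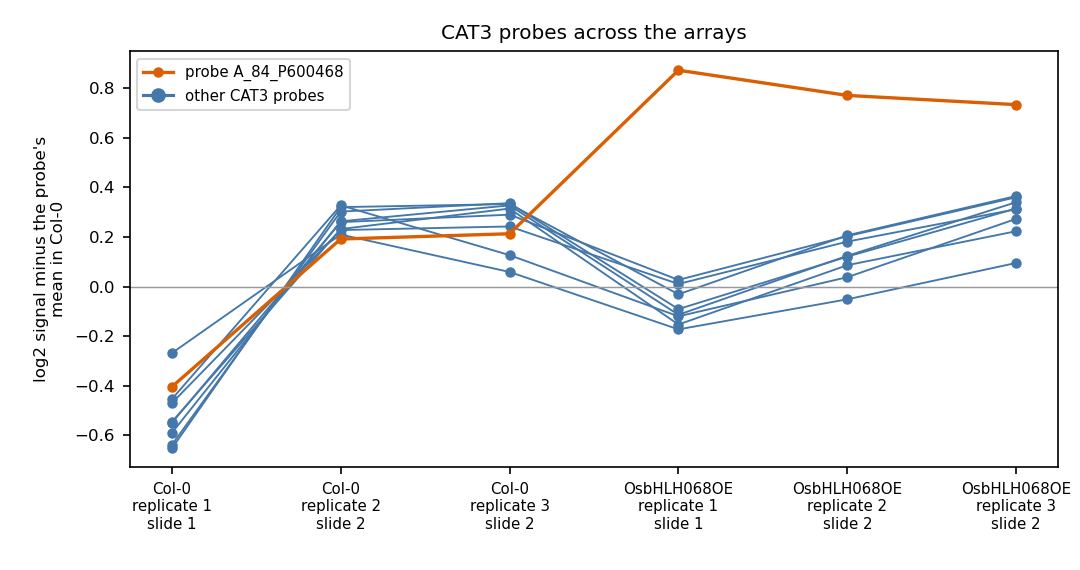
Log2 signal of the 9 *CAT3* probes on each array, minus the mean of that probe in Col-0 (each line is 1 probe). On 8 probes (blue) the transgenic arrays lie within the range of the Col-0 arrays or close to it, with Col-0 replicate 1 lowest, whereas probe A_84_P600468 (orange) is higher on all 3 transgenic arrays.

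Of the ascorbate peroxidases, the stromal enzyme *SAPX* (AT4G08390, also found in mitochondria) and the thylakoid enzyme *TAPX* (AT1G77490) had higher signals in OsbHLH068OE. *SAPX* measured 11.54, 11.30, and 11.30 in Col-0 and 11.84, 11.68, and 11.74 in OsbHLH068OE. The groups did not overlap, the log2 difference was 0.37 (95% CI 0.13 to 0.62, adjusted P = 0.147 by limma), and the second probe gave 0.25 without overlap (adjusted P = 0.212). *TAPX* measured 13.52, 13.40, and 13.49 against 13.82, 13.68, and 13.66, again without overlap, a log2 difference of 0.25 (95% CI 0.04 to 0.45, adjusted P = 0.199).

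The peroxisomal membrane enzyme *APX5* (AT4G35970) had a lower signal. It measured 6.70, 6.59, and 6.82 in Col-0 and 6.37, 6.55, and 6.42 in OsbHLH068OE. All transgenic arrays were below all Col-0 arrays, and the log2 difference was -0.26 (95% CI -0.50 to -0.02, adjusted P = 0.228 by limma).

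*APX1* (AT1G07890), the main cytosolic enzyme, had 7 probes. On its brightest probe the spot of Col-0 replicate 3 was marked as an outlier by the scanner software and was left out, so that this value rests on 2 Col-0 arrays. The values were 15.00 and 14.92 in Col-0 replicates 1 and 2 and 14.85, 14.89, and 14.81 in OsbHLH068OE. The difference was small, with a log2 value of -0.11 (95% CI -0.34 to 0.12, adjusted P = 0.531 by limma), and the other 6 probes, measured on all arrays, gave -0.06 to 0.04. The raw signal of the omitted spot was 1305, where the other 5 arrays had 26932 to 34164. The deposited log2 table keeps this spot at 10.34, and the same probe there gave a log2 difference of 1.43. That sign is opposite to the one obtained without the spot.

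The other 4 members of the family did not reach an unadjusted P under 0.05, with log2 differences from -0.13 to 0.14. Of these, *APX3* of the peroxisomal membrane and *APX6* had -0.10 and -0.13, with each transgenic array below each Col-0 array. The lumen protein *APX4* gave 0.14, and the heat-inducible cytosolic *APX2* was not above background.

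Of the recycling enzymes, the chloroplast and mitochondrial glutathione reductase *GR2* (AT3G54660) was the only one with an unadjusted P under 0.05. It measured 12.73, 12.55, and 12.54 in Col-0 and 12.94, 12.90, and 13.02 in OsbHLH068OE. The groups did not overlap, and the log2 difference was 0.35 (95% CI 0.13 to 0.56, adjusted P = 0.132 by limma). The cytosolic form *GR1* had a log2 difference of 0.11 (95% CI -0.11 to 0.34) with overlapping groups.

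Among the dehydroascorbate reductases, cytosolic *DHAR1* and *DHAR2* had log2 differences of -0.32 (95% CI -0.66 to 0.02) and -0.17 and chloroplast *DHAR3* had 0.10. The groups did not overlap for *DHAR1*, whose adjusted P was 0.267 by limma. Among the monodehydroascorbate reductases the log2 differences ran from -0.19 to 0.22, with 0 of 10 probes at an unadjusted P under 0.05. *MDAR3* was by far the most variable of the 5. Its arrays ran from 6.22 to 8.44 in Col-0 and from 6.15 to 7.92 in OsbHLH068OE, with the lowest array of both groups on slide 1, and its 95% CI from -1.85 to 1.46 leaves a difference in either direction undetected at this spread.

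Of the glutathione peroxidase-like genes, the chloroplast members *GPX7* and *GPX1* had positive differences. The others, whose compartment was left unassigned, had negative ones except for *GPX4*. Only *GPX7*, *GPX2*, and *GPX3* reached an unadjusted P under 0.05 by limma. *GPX7* (AT4G31870), a chloroplast enzyme, measured 7.21, 7.21, and 7.00 in Col-0 and 7.52, 7.83, and 7.88 in OsbHLH068OE. All transgenic arrays were above all Col-0 arrays, and the log2 difference of 0.60 (95% CI 0.29 to 0.91, adjusted P = 0.106 by limma), or 1.51-fold, was the highest among the 42 representative probes. It was 0.30 on slide 1 and 0.75 on slide 2. The other chloroplast enzyme, *GPX1*, had 0.11 to 0.14 on its 4 probes, all with overlap.

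*GPX2* (AT2G31570) measured 13.41, 13.74, and 13.65 in Col-0 and 13.23, 13.29, and 13.32 in OsbHLH068OE. The groups did not overlap, and the log2 difference was -0.32 (95% CI -0.58 to -0.05, adjusted P = 0.198 by limma). *GPX3* (AT2G43350), known for relaying H2O2 signals in abscisic acid responses, measured 11.87, 11.91, and 11.90 against 11.56, 11.74, and 11.74, also without overlap, a log2 difference of -0.22 (95% CI -0.42 to -0.01, adjusted P = 0.238). *GPX5*, *GPX6*, and *GPX8* had -0.29, -0.18, and -0.16 with overlapping groups, and *GPX4* was not above background.

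Of the peroxiredoxins, *2CPA* (AT3G11630), an abundant chloroplast enzyme, measured 15.41, 15.24, and 15.39 in Col-0 and 15.70, 15.55, and 15.53 in OsbHLH068OE. The groups did not overlap, and the log2 difference was 0.25 (95% CI 0.02 to 0.47, adjusted P = 0.225 by limma), with 0.30 on its second probe. Its close paralog *2CPB* had 0.14, and the chloroplast enzymes *PRXQ* and *PRXIIE* had 0.11 and 0.15, all with overlap. Cytosolic *PRXIIB* had -0.12 without overlap, and mitochondrial *PRXIIF* had 0.05. Probes of such near-identical genes may bind both transcripts, which was not tested.

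Set side by side, most representative probes of chloroplast proteins had positive differences and most of those of cytosolic and peroxisomal proteins had negative ones. The compartments were assigned from general knowledge, with earlier results of these data known. Of the genes with a divided or unsettled location, 8 were left unassigned, *FSD1* among them. The 3 divided between chloroplast and mitochondrion (*SAPX*, *GR2*, and *MDAR6*) were counted with the chloroplast. Of the 15 genes with a chloroplast protein, 3 of them shared with mitochondria, 14 were above 0, all but *CSD2*, and their median was 0.15. At an unadjusted P under 0.05, 5 of these 15 were higher (*GPX7*, *SAPX*, *GR2*, *TAPX*, and *2CPA*) and 1 was lower, where the share over all probes was 11.0% higher and 8.80% lower. Of the 19 genes with a cytosolic, peroxisomal, or mitochondrial protein, 15 were below 0 and the median was -0.11, and 0 were higher and 2 lower (*CSD1* and *APX5*) at that threshold. The 2 of these with a mitochondrial protein, *MSD1* and *PRXIIF*, were both above 0, with a median of 0.07. Over all 44 probes of the 19 genes, 26 were below 0 and 18 above, with a median of -0.04. The 15 genes below 0 included *CSD3*, *APX2*, which was not above background, and *CAT3*, whose other probes were all above 0. Over all 25 probes of the 15 chloroplast genes, 22 were above 0 and 3 below. The 8 unassigned genes had a median of -0.17, with *FSD1* higher and *GPX2* and *GPX3* lower.

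Over all probes, 53.2% had a positive value and the median was 0.02. The 31 leaf marker probes had a median of 0.03, with 21 positive, 10 negative, and 0 with an unadjusted P under 0.05. All 10 negative probes were very bright, with mean log2 signals of 17.42 or more. Other probes as bright were positive, such as a *CAB1* probe with a mean of 18.15 and a difference of 0.04. Leaf marker probes with means of 15.12 or less, of *CAB1*, *LHCB2.2*, and *PSAD1*, were all positive, from 0.02 to 0.21. Both limits of signal were chosen after the signs were seen. Whether differences are compressed at the brightest probes was not tested. On both slides separately, 11 of the 15 chloroplast genes were positive and 1 was negative, and of the 19 others 9 were negative and 3 positive. Of all 43603 probes, 28450 had the same sign on both slides. Most of these differences were individually within the spread of the arrays, and the split by compartment itself was described without a test. Members of a compartment share the same 6 arrays and are not replicates.

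**Figure D4:**
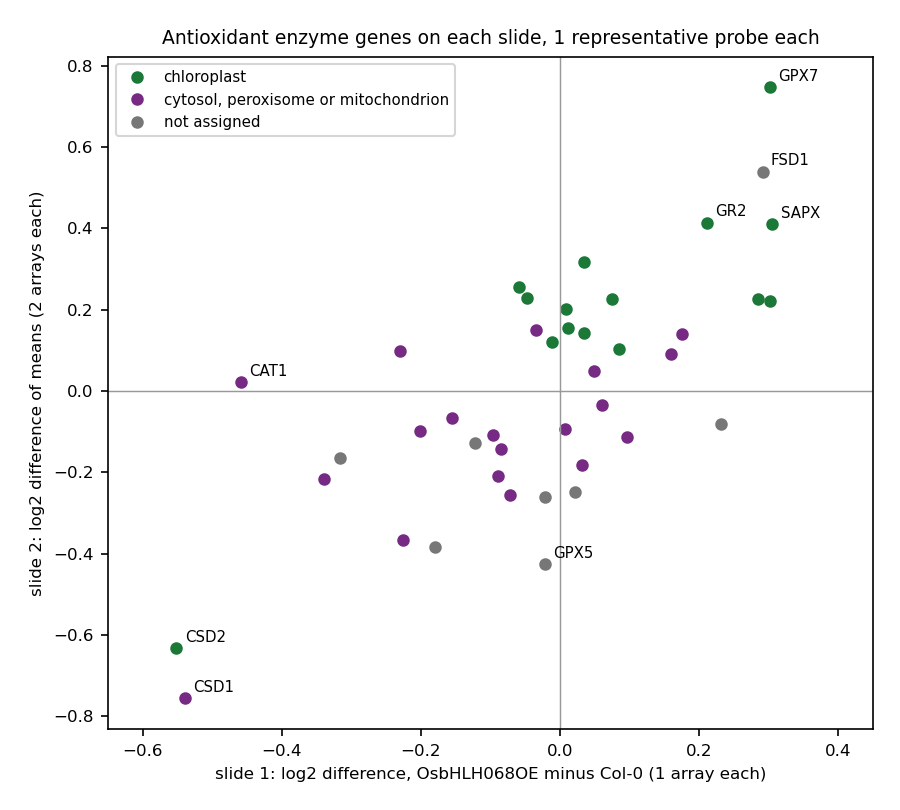
Log2 difference of OsbHLH068OE minus Col-0 on slide 1 (horizontal, 1 array of each group) and on slide 2 (vertical, means of 2 arrays of each group) for the representative probe of each of the 42 genes, coloured by the compartment of the protein. Of the 15 chloroplast genes (green), 11 lie in the upper right quadrant and *CSD2* in the lower left, and of the 19 cytosolic, peroxisomal, and mitochondrial genes (purple), 9 lie in the lower left.

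The enzymes depend on reductants, chaperones, and signals made by other genes. For these, 8 lists of 63 partner genes were drawn up, again with earlier results known. Of these, 60 genes had a probe, 100 probes in all, and 10 probes were higher and 9 lower at an unadjusted P under 0.05 (background 19.8% in either direction). By limma, 0 of 100 had an adjusted P under 0.05, and 2 were DEPs. In at least 1 alternative fit, *ZAT12*, *BAP1*, *OXI1*, *HMA1*, *MTM1*, and *VTC4* had an adjusted P under 0.05.

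Ascorbate, the substrate of the peroxidases, is made mainly by the pathway through GDP-mannose and galactose. Of its 8 genes, 2 were higher at an unadjusted P under 0.05 and 0 lower, where the share over all probes was 11.0% higher and 8.80% lower. *VTC4*, the galactose-1-phosphate phosphatase, measured 12.81, 12.40, and 12.43 in Col-0 and 13.06, 12.99, and 13.03 in OsbHLH068OE, without overlap and with a log2 difference of 0.48 (95% CI 0.17 to 0.79, adjusted P = 0.142 by limma), and 0.44 on its second probe. *VTC2*, which catalyses the committed step, had 0.28 to 0.35 on its 3 probes, all without overlap. The other 6 genes had -0.17 to 0.23. Neither of the 2 glutathione synthesis genes reached an unadjusted P under 0.05 on its representative probe. Every *GSH2* probe was lower, from -0.25 to -0.17, and every *GSH1* probe was higher, from 0.03 to 0.09. The groups did not overlap on the representative probe of either gene, nor on the dimmest *GSH2* probe (unadjusted P = 0.0466, adjusted P = 0.246 by limma). These were 3 of 8 probes, where 27.0% of all probes did not overlap.

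In the list of chaperones and copper supply, 14 of 17 genes had a probe. On the representative probe, 1 was higher (*MTM1*) and 2 were lower (*CCS* and the copper chaperone *CCH*, by -0.24) at an unadjusted P under 0.05. The share over all probes was 11.0% higher and 8.80% lower, or 19.8% in either direction. *HMA1*, a chloroplast envelope metal pump, gave -0.63 on 1 probe (6.26, 6.25, and 5.99 against 5.45, 5.59, and 5.57, adjusted P = 0.0727 by limma) but -0.10 on its brighter one. With an offset of 50 in the background correction the first probe gave -0.34. The 2 probes thus differed in size though not in sign. *SPL7*, the copper-response regulator, had 0.03, and the copper transporters *COPT1* and *COPT2* had -0.19 and -0.22 without overlap on the representative probes.

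Of the 9 marker genes of oxidative stress, 8 had a negative log2 difference, with 5 lower and 0 higher at an unadjusted P under 0.05, where the share over all probes was 8.80% lower and 11.0% higher. *ZAT12*, a zinc finger gene that responds to H2O2 and many stresses, measured 10.32, 10.59, and 11.05 in Col-0 and 9.23, 9.22, and 9.30 in OsbHLH068OE. All transgenic arrays were below all Col-0 arrays, and the log2 difference was -1.41 (95% CI -1.86 to -0.95, adjusted P = 0.0513 by limma), or 2.65-fold lower.

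*BAP1*, a gene known to respond to singlet oxygen, measured 7.53, 8.27, and 8.82 against 5.73, 6.78, and 6.81, without overlap, a log2 difference of -1.77 (adjusted P = 0.122 by limma), or 3.40-fold lower. The kinase gene *OXI1* measured 4.96, 5.28, and 5.50 in Col-0 and 4.64, 4.32, and 4.63 in OsbHLH068OE, where it was not well above background on any array (adjusted P = 0.118). Its log2 difference changed with the way background was corrected, from -0.72 in the reported fit to -0.27 with an offset of 50 and -0.30 without correction. The heat shock factor gene *HSFA2* had -0.57 (adjusted P = 0.187), and *GSTF8* had -0.30. *ZAT12* and *BAP1* had adjusted P of 0.0427 and 0.0386 with the slide as a block.

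Some partner genes had large mean differences that did not exceed the spread. *PRXIIC* measured 8.82, 11.83, and 11.33 in Col-0 and 10.57, 7.85, and 7.49 in OsbHLH068OE, so that the transgenic array was higher on slide 1 and lower on slide 2, and its adjusted P was 0.356 by limma. The alternative oxidase gene *AOX1D* did the same on its brighter probe, with 6.73, 10.08, and 8.79 against 7.70, 6.78, and 7.01 (adjusted P = 0.401). In both genes Col-0 replicate 1 was far below the other 2 Col-0 arrays.

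**Figure D5:**
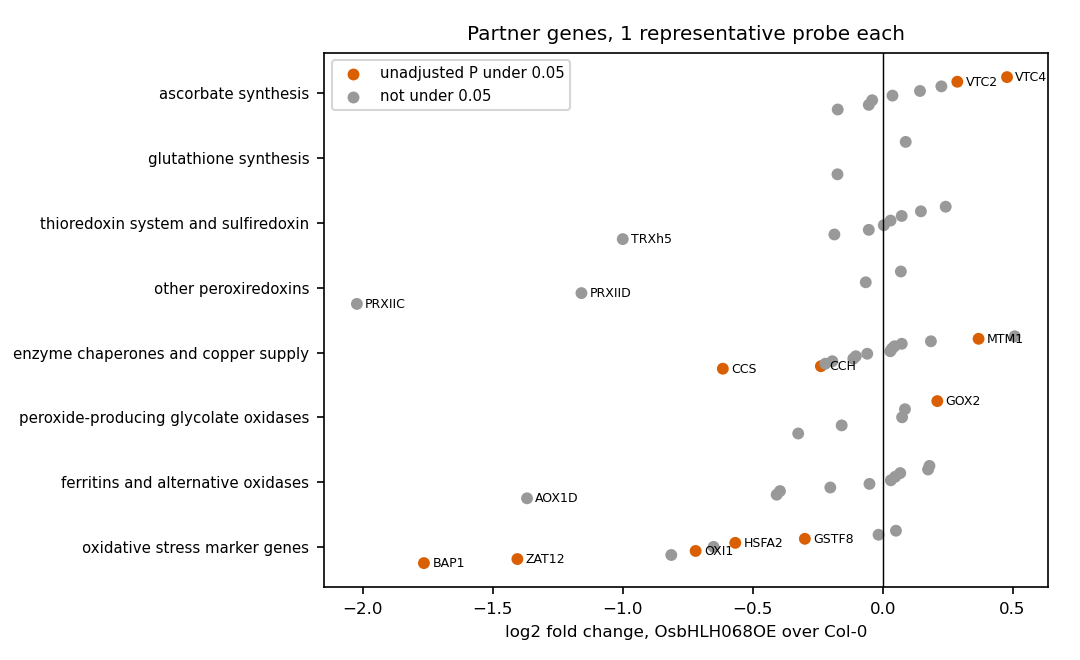
Log2 fold change of OsbHLH068OE over Col-0 for the representative probe of each of the 60 partner genes with a probe, by list. Orange points have an unadjusted P under 0.05 by limma, and gray points do not. In the oxidative stress list 5 of 9 genes are orange and lower, and in the ascorbate synthesis list 2 of 8 are orange and higher. Over all probes, 8.80% were lower and 11.0% higher at that P.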

How the data were processed

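Aerial tissues were measured on 6 one-color Agilent arrays. The authors deposited spot intensity as read by Agilent Feature Extraction 10.7.1.1 (median signal, local background, and a processed signal that the software had background-subtracted). They also deposited log2 values made with normexp and quantile normalization in limma, from which the same steps repeated here differed by at most 5e-09.

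In R 4.3.3 with limma 3.58.1, normexp (offset 0) was applied to the median signals, 1417 control spots were left out, log2 values were quantile-normalized, spots marked as outliers were dropped, and repeat spots were averaged. The deposited log2 values keep outlier spots and served as an alternative. All 43603 probes entered lmFit and eBayes (2.03 prior degrees of freedom), and P was adjusted over all of them by Benjamini-Hochberg. RefSeq accessions gave the gene of 34358 probes and the study's annotation that of 47 more, among them the *DHAR1* probe, and 9198 had no gene name. The fit was tested on simulated data.

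Members were named if their representative probe had an unadjusted P under 0.05 and was above background in a group, and *CAT1*, *CAT2*, *CAT3*, and *APX1* in any case. Partner genes were named if a probe was a DEP or among the 8 with the largest difference at that P. Genes outside this rule are given by range or value, chosen after their values were seen. Members, lists, and compartments were chosen with earlier results of these data known. Alternatives changed the background correction, scaling, probe filter, variance model, blocks, slide, probe summary, or the array left out.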

Additional observations from a re-analysis of the deposited data

How the results depend on the processing

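No antioxidant enzyme probe had an adjusted P under 0.05 in the fit reported. With an offset of 50 in normexp there were 2 and with only probes above background 2 (a probe of *FSD1* and that of *GPX7*), and there was 1, of *FSD1*, without background correction, with an intensity trend and robust prior, and with the slide as a block. Of these fits, the share over all probes is given here only for the slide block (2.33%). Leaving out 1 array at a time gave 0 to 5. The 5 arose without Col-0 replicate 1 (both *FSD1* probes and 1 probe each of *SAPX*, *CSD2*, and *CAT3*), where *CSD2* was also a DEP (0 to 1 DEPs over the arrays left out). That fit also called far more of all probes than the one reported, as given below. Over the same arrays, 6 to 15 probes were higher and 0 to 11 lower at an unadjusted P under 0.05, 24 to 46 did not overlap, the median log2 fold change ran from -0.047 to 0.053, and 9 to 37 partner probes had an unadjusted P under 0.05. Groups of fewer arrays overlap less for any probe. Without a share over all probes, these non-overlap counts say nothing particular about the members. Of all probes, 30.5% reached that P without Col-0 replicate 1 and 12.8% without Col-0 replicate 2.

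With 1 representative probe per gene, 6 genes were higher, the median was -0.0071, and 10 partner genes had an unadjusted P under 0.05. With the mean of the probes of a gene these were 6, 0.0030, and 11, and 15 member genes did not overlap. Fewer features are counted in both. The median was 0.048 with the processed signal and 0.059 with normexp, both scaled to the 75th percentile, and -0.0075 with cyclic loess. Within slide 2 it was -0.037, and 51 member probes did not overlap among fewer arrays. At an unadjusted P under 0.05, slide 2 had 30 partner probes (all probes 25.9%) and the slide block 29 (26.6%).

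Among the genes named by the rule, signs reversed for *APX1* and the 3 catalases. *APX1* had 1.43 in the deposited values, which keep the spot marked as an outlier. *CAT2* had 0.050 with the processed signal and 0.076 with normexp at the 75th percentile, and *CAT3* had 0.080 and 0.090. *CAT3* also had 0.18 as a mean of probes and ran from -0.18 to 0.062 with 1 array left out, being positive without Col-0 replicate 2 or OsbHLH068OE replicate 1. *CAT1* had 0.022 within slide 2 and ran from -0.41 to 0.15, positive without OsbHLH068OE replicate 1. For the catalases the cause was not tested. The count of 14 chloroplast genes with a positive value held in each of the 20 alternatives and that of 15 others with a negative value ran from 11 to 15, both counted after the data were seen.

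Among the partner genes named by the rule, none had an adjusted P under 0.05 in the fit reported. *ZAT12* did in 6 alternatives (lowest 0.0121), *HMA1* in 4 (0.0236), *MTM1* in 4 (0.0397), and *BAP1* (0.0386, slide as a block), *OXI1* (0.0455), and *VTC4* (0.0391, both without Col-0 replicate 1) in 1 each, in the same direction.

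Same-numbered arrays correlated at 0.262 (replicate 1, both on slide 1), 0.0983, and 0.0128, other pairs at -0.216 to 0.136. With a replicate block, 0 member probes had an adjusted P under 0.05, 8 were higher and 6 lower, and 1 of all probes was called rather than 233. The methods' t-test gave 396 DEPs and 0 of all probes after Benjamini-Hochberg, against 510 and 233 with limma, and 0 of the members in either. Leaving out an array other than Col-0 replicate 1 left 1 to 19 of all probes called, and Col-0 replicate 1 left out gave 2726.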

Other observations

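A few genes of the lists varied widely between arrays of the same group. *MDAR3* had a pooled SD within groups of 1.01 on the log2 scale, against a median of 0.12 over the member probes and 0.17 over all probes. *TRXh5* measured 11.45, 13.93, and 12.79 in Col-0 and 11.09, 12.13, and 11.94 in OsbHLH068OE, and *GSTF6* measured 11.94, 14.30, and 13.51 against 11.97, 12.63, and 12.71. In each of these genes replicate 1 was the lowest Col-0 array and replicate 2 the highest, the groups overlapped, and the difference did not reach an unadjusted P under 0.05. They were chosen after their values were seen.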
